A study of Drosophila melanogaster with 3 samples.

Results

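MicroRNA hairpin genes are the loci that encode the stem-loop precursors of microRNAs, and 260 of the 18164 annotated genes on the 6 main chromosome arms of *Drosophila melanogaster* were of this kind. They were taken by the transcript class pre_miRNA in the Ensembl annotation of the release 6 genome (dm6), without regard to any measured value. All 260 had at least 1 mature microRNA in the RefSeq annotation of the same genome. The measurement was a ChIP-seq map of CG12659, a small YL1-domain protein whose human relative, INO80C, belongs to the chromatin remodeller INO80. The embryos came from 1 transgenic line that stably carried CG12659 with GFP at its C terminus, were 0 to 24 h old, of both sexes and used whole, and their sonicated chromatin (200 to 800 bp) was recovered with an antibody against GFP. There were 3 biological replicates in 1 group and no untreated or mutant group. The deposited files were lists of enriched regions, each with a summit (its point of highest enrichment) and a signal value of the authors' peak caller, which has no unit. The lists hold no read counts, so the depth behind a region is unknown. In whole embryos, fewer cells with the protein at a site and less protein per cell cannot be told apart.

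A microRNA is first part of a longer primary transcript made by RNA polymerase II. The nuclear enzyme Drosha and its partner Pasha cut the hairpin out of it, Dicer-1 trims the hairpin to a short duplex, and 1 strand of the duplex guides the Argonaute protein AGO1 to messages that pair with its seed, the stretch behind the first base. Many hairpins lie in introns of protein-coding genes and are then usually made from the promoter of that host gene, and mirtrons are hairpins that span a whole short intron and are released by splicing instead of by Drosha. Other hairpins lie between protein-coding genes and need a promoter of their own, often that of a long non-coding RNA. Neighbouring hairpins on 1 strand can share a primary transcript, so they were joined into clusters where the gap was at most 10 kb, and a cluster was counted once.

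The results turn on a few microRNAs, whose mature sequences are given from the RefSeq release 6 genome with the seed (bases 2 to 8) in capitals. The first set is the mir-279 and mir-996 pair and mir-282 and mir-9a, the intergenic clusters with the highest upstream summits, and bantam (mir-ban), which had summits on both sides. The pair shares 1 seed.
mir-279 (3p arm, 3R:29215651-29215672, + strand): uGACUAGAuccacacucauuaa
mir-996 (3p arm, 3R:29217244-29217265, + strand): uGACUAGAuuucaugcucgucu
mir-282 (5p arm, 3L:3251038-3251061, + strand): uAGCCUCUacuaggcuuugucugu
mir-9a (5p arm, 3L:19565140-19565162, + strand): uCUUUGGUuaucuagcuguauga
mir-ban (3p arm, 3L:642259-642281, + strand): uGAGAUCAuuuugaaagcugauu

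The next set lies inside protein-coding genes, except mir-2c. The mir-92 pair in jigr1 had the highest summit within 500 bp of a hairpin. The mir-2 relatives and mir-11 share the seed AUCACAG, which pairs with the K box of target messages, and come from different promoters. Another is mir-33, from an intron of the sterol regulator SREBP.
mir-92a (3p arm, 3R:25646560-25646581, + strand): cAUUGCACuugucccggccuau
mir-92b (3p arm, 3R:25651457-25651478, + strand): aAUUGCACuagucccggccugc
mir-2a-1 (3p arm, 2L:19569902-19569924, - strand): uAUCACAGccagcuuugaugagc
mir-2b-1 (3p arm, 2L:8258623-8258645, - strand): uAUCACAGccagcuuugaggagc
mir-2c (3p arm, 3R:15417761-15417783, - strand): uAUCACAGccagcuuugaugggc
mir-11 (3p arm, 3R:21622504-21622524, - strand): cAUCACAGucugaguucuugc
mir-33 (5p arm, 3L:19797986-19798006, + strand): gUGCAUUGuagucgcauuguc

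The DNA under 4 upstream summits of intergenic clusters is given as 101 bases of the release 6 genome on the hairpin's strand, with the 5 bases centred on the summit in capitals. They are the highest summits within 5 kb upstream of these clusters.
mir-279 and mir-996 (3R:29214398-29214498, + strand): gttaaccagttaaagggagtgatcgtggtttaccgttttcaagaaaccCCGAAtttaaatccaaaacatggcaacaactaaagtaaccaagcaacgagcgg
mir-282 (3L:3250188-3250288, + strand): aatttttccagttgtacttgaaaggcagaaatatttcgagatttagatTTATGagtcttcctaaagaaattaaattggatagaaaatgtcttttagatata
mir-9a (3L:19560762-19560862, + strand): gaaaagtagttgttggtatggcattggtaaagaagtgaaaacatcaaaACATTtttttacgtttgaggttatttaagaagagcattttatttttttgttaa
mir-ban (3L:640725-640825, + strand): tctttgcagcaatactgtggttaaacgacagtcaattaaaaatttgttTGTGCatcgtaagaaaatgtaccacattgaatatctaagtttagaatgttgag

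None of these 4 windows held TATCGATA (the DRE motif), its core TCGATA, the GAGA factor's letters GAGAG or the core promoter motif GTCACACT, on either strand. Over the 95 peaks used for hairpins, TCGATA stood within 50 bp of the summit in 16 (16.8%), against 12.2% of all 8952 peaks of the reproducible set. The full TATCGATA, which contains TCGATA, was in 5 of the 95 (5.26%) against 3.59% of all peaks. GAGAG was in 6 (6.32%) against 9.54%, and GTCACACT in 2 (2.11%) against 2.74%. These letter matches are a description and were not tested.

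The 260 hairpins formed 203 clusters. The hosted class, inside a protein-coding gene on the same strand, held 136 hairpins in 124 clusters, with 100 hairpins wholly in introns and 36 overlapping an exon. The mirtrons, both of whose ends lie within 5 bp of the ends of an annotated intron, numbered 34 of the 136. The intergenic class, overlapping no protein-coding gene on either strand, held 92 hairpins in 57 clusters, and 28 of these clusters lay in an annotated non-coding RNA gene on their strand. A further 30 hairpins in 20 clusters lay inside a protein-coding gene on the other strand only, and 2 overlapped a gene end in part. Clusters of at least 2 hairpins numbered 22, and the largest, the testis cluster from mir-972 to mir-979 on the X chromosome, had 12. Hairpins had a median length of 92 bp (50 to 174).

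The first question was whether CG12659 lay at the hairpins themselves. In the authors' reproducible set (the IDR peaks, for irreproducible discovery rate, 8952 regions of the 30000 called on the pooled replicates), a summit lay within 500 bp of a hairpin in 21 of 203 clusters, 10.3% (95% exact interval 6.52 to 15.4, which like all intervals here covers counting error only). A window around a single hairpin-sized stretch would hold a summit at 6.38% of positions of the 6 arms. A cluster of several hairpins has several such windows, so the count per hairpin is the like one, and it was 22 of 260, 8.46% (5.38 to 12.5). Of the 260 hairpins, 8 lay inside an IDR region. Hosted clusters had a nearby summit in 12 of 124, 9.68% (5.10 to 16.3), beside 6.88% of positions inside protein-coding genes. Intergenic clusters had one in 5 of 57, 8.77% (2.91 to 19.3), beside 5.37% of positions in no protein-coding gene. Per hairpin these were 12 of 136 (8.82%, 4.64 to 14.9) and 7 of 92 (7.61%, 3.11 to 15.1). The intervals per hairpin all reached down past their backgrounds, so no excess over background was detectable at this distance.

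In the single replicates, the regions of highest signal were used, as many as the IDR set holds. They gave 14, 14 and 13 hosted clusters and 5, 5 and 6 intergenic ones. The mean shares were 11.0% ± 0.466 (SD, n = 3) and 9.36% ± 1.01 (SD, n = 3). An exact two-sided permutation test over the replicates gave p = 0.2, where 3 values against 3 cannot go below 0.1. This test, here and below, treated the hosted and intergenic shares as independent, although both come from the same list in each replicate. The replicate shares of the classes overlapped in these regions. The order depended on the regions and the window. With all regions of each replicate the intergenic share was the higher one (hosted minus intergenic -6.17 points), while with a window of 200 bp, or any overlap of a region with the window, the hosted share was (3.23 and 4.13 points in the IDR set). The exact permutation p over replicates was 0.1, the smallest allowed, in each of these 3 cases. In the pooled list hosted clusters had 30 of 124 and intergenic ones 15 of 57.

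In the wider window upstream of the hairpins, summits were more frequent, as they were over all positions (22.2% against 6.38% within 500 bp). The upstream share was higher for hosted than for intergenic clusters, and so was its background. Within 5 kb upstream of the first hairpin, on its strand, a summit lay at 81 of 203 clusters, 39.9% (33.1 to 47.0), beside 22.2% over all positions and both strands. Hosted clusters had one in 57 of 124, 46.0% (37.0 to 55.1), where 31.5% of positions inside protein-coding genes would, read on the gene's strand. Intergenic clusters had one in 17 of 57, 29.8% (18.4 to 43.4), where 13.3% of positions in no protein-coding gene would. The hosted and the intergenic interval both lay above their own background. These intervals take clusters as independent, and the backgrounds count every position without matching for distance to a start, whose part was not tested. Clusters on the other strand of a gene had one in 6 of 20.

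The replicates gave 58, 59 and 55 hosted clusters and 18, 18 and 17 intergenic ones with an upstream summit. The mean shares were 46.2% ± 1.68 and 31.0% ± 1.01 (SD, n = 3 each). The hosted share was higher in 3 of 3 replicates, by 15.2 points on average, with p = 0.1 in the exact two-sided permutation test, the smallest that 3 against 3 allows. The replicates share the annotation and the clusters, so this p measures only the spread between the 3 lists.

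**Figure D1:**
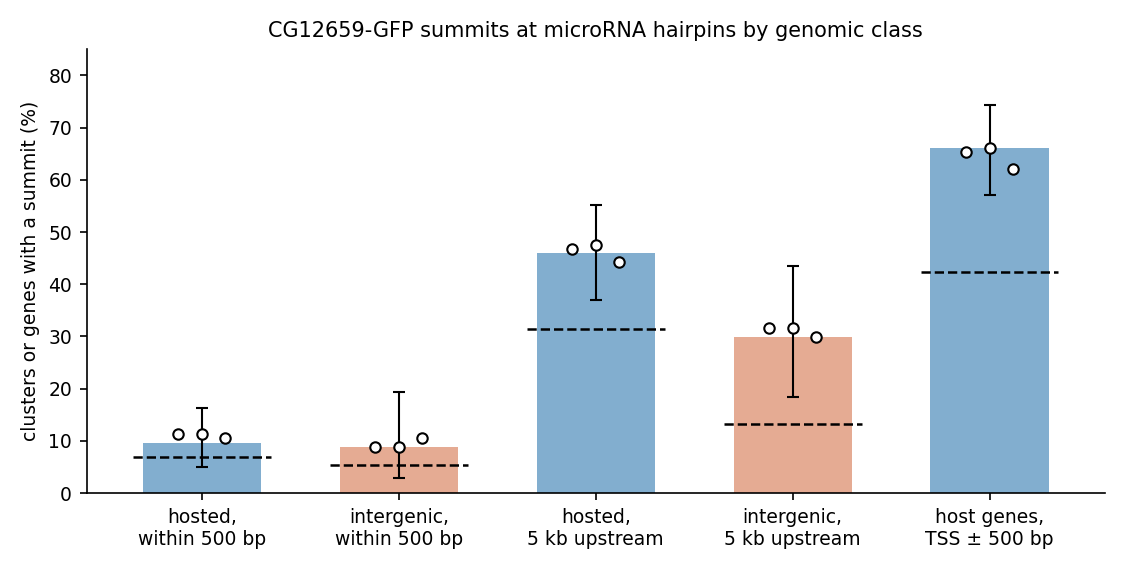
Share of microRNA clusters with an IDR summit within 500 bp of a hairpin or within 5 kb upstream, and share of host genes with an IDR summit within 500 bp of a transcription start site (TSS). Bars are the IDR set with 95% exact intervals, open circles the highest regions of replicates 1 to 3 from left to right, and dashed lines the share over positions of the same kind of sequence or, for host genes, over all protein-coding genes. Hosted clusters (46.0%) and intergenic clusters (29.8%) stand above their dashed lines of 31.5% and 13.3% upstream, and the intervals at 500 bp span theirs.

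The higher upstream share of hosted clusters went with annotated protein-coding starts in the window. With such a start in the 5 kb, 53 of 88 hosted clusters (60.2%, 49.2 to 70.5) and 8 of 22 intergenic clusters (36.4%, 17.2 to 59.3) had a summit. With none, hosted clusters had 4 of 36 (11.1%, 3.11 to 26.1) and intergenic clusters 9 of 35 (25.7%, 12.5 to 43.3). The order of the classes was then the other way, but on few clusters and with overlapping intervals. No background was counted for positions with or without a start, so these shares cannot be read as traits of hairpins. The replicates gave 4, 4 and 4 hosted clusters without a start and 9, 9 and 8 intergenic ones (exact two-sided permutation p = 0.1, the smallest allowed). This p too measures only the spread between the lists. Only the highest summit in each window was classed by the start it lay at. Lower summits at a start in the same window were not counted, as at the host starts of mir-33, mir-9378, mir-4968 and mir-4980. Of the 57 hosted clusters with an upstream summit, the highest summit lay within 500 bp of a start of the host gene in 40, of another protein-coding gene in 5, of a non-coding gene around the hairpin in 1 and of no annotated start in 11. Of the 17 intergenic clusters it lay at the non-coding gene that contains the hairpin in 3, at a protein-coding gene in 5, at another non-coding gene in 1 and at no annotated start in 8. All 6 summits upstream of hairpins on the other strand of a gene lay at starts of protein-coding genes. The share of all IDR summits that lie at a start was not counted beside these numbers.

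**Figure D2:**
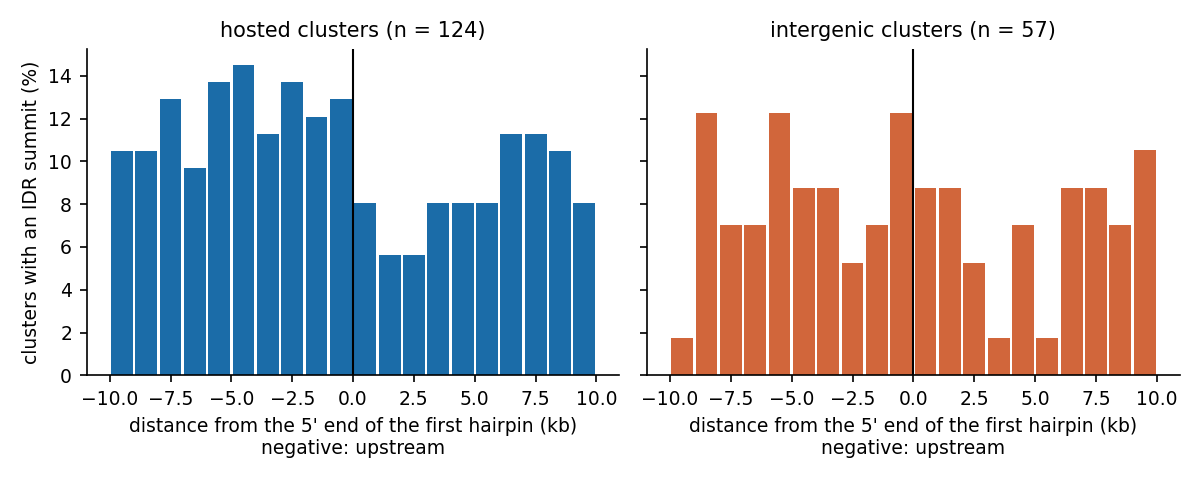
Share of clusters with an IDR summit in each 1 kb bin from 10 kb upstream (negative) to 10 kb downstream of the 5′ end of the first hairpin, for the 124 hosted and the 57 intergenic clusters. Hosted clusters had a summit in 12.9% of cases in the first kb upstream and 8.06% in the first kb downstream, with 14.5% from 4 to 5 kb upstream and 5.65% from 1 to 3 kb downstream in each kb; with 57 clusters, 1 intergenic cluster is a step of 1.75%.

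Host promoters carried CG12659 more often than protein-coding promoters in general. An IDR summit lay within 500 bp of an annotated start of 82 of the 124 host genes, 66.1% (57.1 to 74.4), beside 42.3% of all 13945 protein-coding genes. The replicates gave 81, 82 and 77 hosts, 64.5% ± 2.13 (SD, n = 3), against 41.6% ± 1.31 of all protein-coding genes. The hosts' share was the higher one in each of the 3 replicates. Host genes were long, with a median span of 13462 bp against 2166 bp for all protein-coding genes. Among the 1506 genes at least as long as the median host, 50.9% had a promoter summit. The part of gene length and number of starts in the hosts' share was not tested further. The median signal at the host promoters with a summit was 470, close to the 461 of all protein-coding promoters with one and above the 355 of the whole IDR set. The promoter medians are over genes, with the highest summit over a host's starts, whereas the 355 counts each peak once. Of the 82 host summits, 71 were among the highest regions of all 3 replicates.

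Hosted clusters were also split by the distance from host start to hairpin. The split uses the same 5 kb window in which summits were counted, so the difference below is in part set by the window and is a description only. A host start lay within 5 kb upstream of 84 clusters, and 52 of these (61.9%) had a summit in that window. For the other 40, whose nearest host start lay farther or not upstream, 5 (12.5%) had one. The host promoter itself had a summit in 57 of 84 (67.9%) and 25 of 40 (62.5%) of these cases. The median distance from a host start to the first hairpin was 2710.5 bp. Hosts of mirtrons had a promoter summit in 20 of 33 (60.6%), and other hosts in 62 of 91 (68.1%). Mirtron clusters had a summit near the hairpin in 1 of 33 and upstream in 16 of 33, and the other hosted clusters in 11 and 41 of 91.

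**Figure D3:**
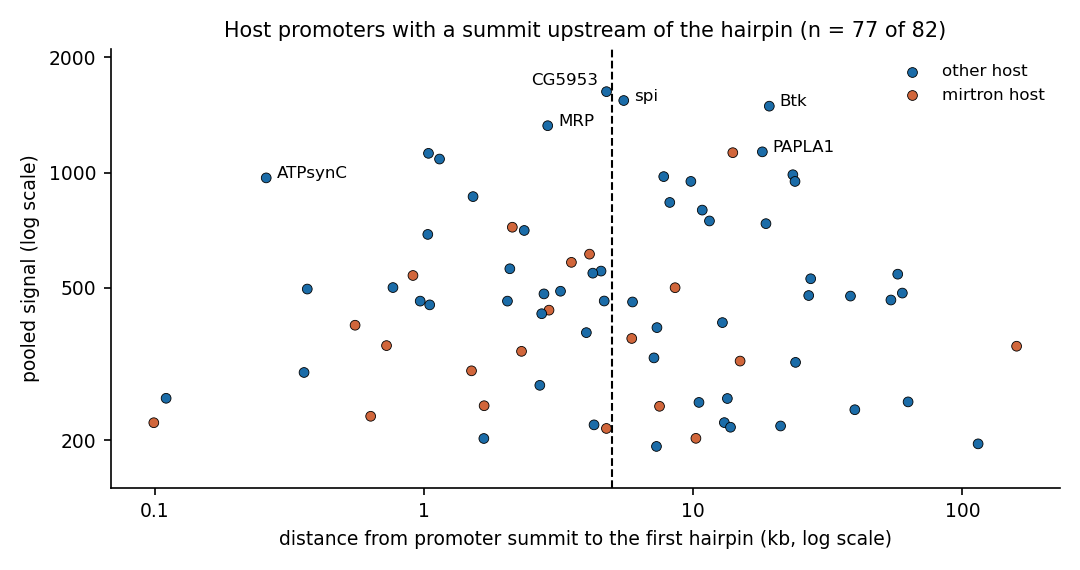
Signal in the pooled list (log axis) against distance (log axis) from the highest promoter summit of a host gene to its first hairpin, for the 77 of 82 hosts whose promoter summit lay upstream of the hairpin. The dashed line is 5 kb. Hosts lie on both sides of it, 38 beyond, with a median distance of 4761 bp, and mirtron hosts (orange) lie among the others.

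The host promoters of highest signal were CG5953, spi, Btk, MRP, PAPLA1, jigr1, CG3764 and CG42788. The spi gene, which encodes the main ligand of the EGF receptor and holds mir-2a-1, mir-2a-2 and mir-2b-2, had a promoter signal of 1543 (rank 223 in the pooled list), and its region ranked 273, 238 and 143 in replicates 1, 2 and 3. The Btk gene, for a cytoplasmic tyrosine kinase, holds mir-2b-1 and had 1491 (rank 243), with replicate ranks of 194, 269 and 295. Both regions stood at rank 295 or higher in every replicate. The spi summit lay 5517 bp and the Btk summit 19167 bp upstream of the first hairpin, outside the 5 kb window. A second, lower spi summit (signal 460) lay 2628 bp upstream, inside it.

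The highest of the 8 was CG5953, host of mir-4943, with 1627 (rank 193; replicate ranks 230, 213 and 166). After Btk came MRP, an ABC transporter gene that hosts mir-9382, with 1326 (rank 314; replicate ranks 387, 354 and 195). The phospholipase gene PAPLA1 (mir-4984) had 1133, jigr1 1132, CG3764 1127 and CG42788 1123. CG3764, with mir-2500, was the mirtron host of highest signal. The ranks of these 4 regions lay between 346 and 781 in the single replicates.

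At the other end, 42 hosts had no IDR summit at a start. Of these, 4 (CG3225, CG9727, rdgA and tau) had a summit among the highest regions of at least 1 replicate, CG9727 in all 3, tau in replicates 1 and 2, CG3225 in replicate 1 and rdgA in replicate 3. These 4 names were chosen after their values were seen.

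Summits within 500 bp of a hairpin often lay at an annotated start. The share of all IDR summits that lie at a start was not counted, so this cannot be read as a trait of hairpin peaks. Of the 12 hosted clusters with one, the summit was at a start of the host in 8. The highest was in jigr1, a gene for a DNA-binding protein, where the region at 3R:25646811-25647270 lay just downstream of mir-92a, at an internal start of the host, with a signal of 1132 (rank 439). It ranked 460, 460 and 380 in the replicates. The region thus lay between the hairpins of the mir-92 pair. Next was mir-4949 in ATPsynC, which encodes the c subunit of the mitochondrial ATP synthase, with 968 (rank 640; replicate ranks 537, 776 and 784) and a summit 259 bp upstream at the host's start.

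The mir-9377 hairpin in Tis11, for a protein that binds AU-rich messages for decay, had a summit of 966 (rank 643; replicate ranks 753, 673 and 550) that lay 414 bp downstream and at no annotated start. Another without a start was mir-9378 in CG17124, with 443. In Pfas, of purine synthesis, mir-966 had 496 with the summit 368 bp upstream, at the host's start, and in Cdk2, a cell cycle kinase, mir-995 had 300 at the host's start. The mir-9370 hairpin in Amun had 358, at a start of FucT6, a fucosyltransferase gene.

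The nearby summits of hairpins outside a same-strand host lay below the highest 3 of the hosted ones. The testis cluster of mir-984, mir-983-2, mir-983-1, mir-303 and mir-982 had 455 at the start of CG3626 on the other strand, and mir-4957 had 389 at a start of Top1, the topoisomerase I gene. For mir-11182, which overlaps a gene end, the value was 530 at CG5726 and nopo. Among intergenic clusters, bantam had 380 and mir-317, mir-277 and mir-34 had 363, neither at an annotated start. In the highest regions of all 3 replicates, 18 of the 21 clusters had a summit within this distance.

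**Figure D4:**
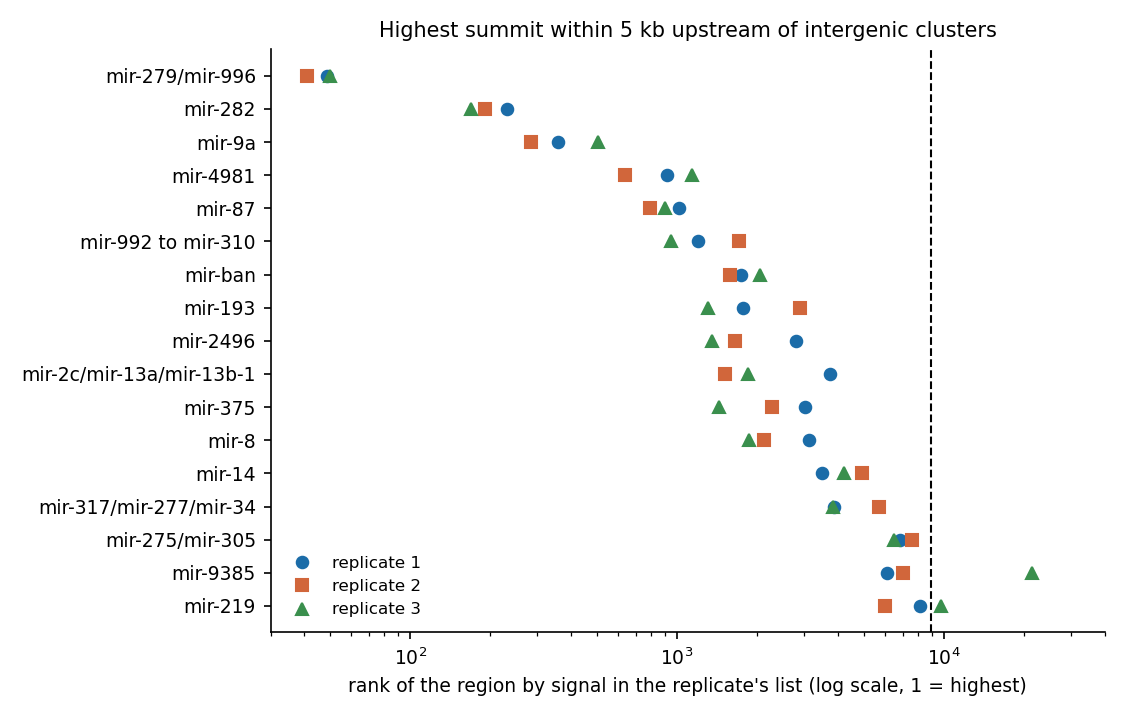
Rank by signal (log axis, 1 is the highest) in each replicate's own list for the region with the highest summit within 5 kb upstream of each of the 17 intergenic clusters that had one. The dashed line is rank 8952, the size of the IDR set. The 3 replicates lie close together for mir-279 and mir-996 (41 to 50) and apart for mir-9385, where replicate 3 stands at 21393, beyond the line.

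The intergenic cluster of mir-279 and mir-996, which restrict the number of carbon-dioxide-sensing neurons, had the highest summit of all 203 clusters. Its region (3R:29214218-29214639) had a signal of 2684 and rank 47 in the pooled list, and ranks of 49, 41 and 50 in replicates 1, 2 and 3. The summit lay 1137 bp upstream of mir-279, at the annotated start of the primary transcript, lncRNA:CR31044. No hosted cluster had a summit as high, the nearest being mir-4943 with 1627.

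The next intergenic clusters were mir-282, with 1609 (rank 196; replicate ranks 231, 190 and 169), and mir-9a, with 1265 (rank 348; replicate ranks 359, 283 and 506). The mir-282 summit lay 784 bp upstream, at a start of lncRNA:CR43626, which contains the hairpin. The mir-9a microRNA keeps extra sense organ precursors from forming through the message of senseless, and its summit lay 4319 bp upstream at a start of another non-coding gene, lncRNA:CR44676. The annotated transcript around mir-9a, lncRNA:CR45916, had no IDR summit at its start.

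Among clusters with a summit only upstream, the hosted ones of highest signal were mir-4943 and mir-9382, given above, mir-2493 in CG42788 (1123; replicate ranks 346, 470 and 781), mir-9374 in the nuclear receptor gene Hr39 (1085; replicate ranks 414, 654 and 594) and mir-4962 in Tlk, the Tousled-like kinase gene (1001; replicate ranks 578, 668 and 633). The first 4 lay at a start of the host. The mir-4962 summit lay 2912 bp upstream, at no annotated start. For mir-4962 the highest regions of all 3 replicates also had a summit within 500 bp, which the IDR set did not. In the IDR set, a summit only upstream was found in 65 of 203 clusters, and 117 clusters had none in either window. The 86 with at least 1 drew on 95 IDR regions, 84 of which were among the highest of all 3 replicates.

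The long non-coding RNA genes that contain intergenic hairpins were examined as their own promoters, a count added after the values were seen. Of 28 such genes, 16 carry a primary microRNA transcript among their RefSeq synonyms. An IDR summit lay within 500 bp of a start of 8 of the 28, 28.6% (13.2 to 48.7), beside 11.8% of the 3001 genes of class ncRNA, these 28 among them. The replicates gave 9, 7 and 10. Besides the genes of mir-279 and mir-282 these were lncRNA:Hsromega, the heat shock RNA gene that contains mir-4951 (signal 1036), and the transcripts of mir-8 (515), mir-14 (372), mir-bft (306), bantam (230) and mir-10 (187). The mir-bft, bantam and mir-10 values lie below the median of the IDR set. The mir-10 region ranked 8390, 10013 and 7569 in the replicates, on both sides of rank 8952.

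MicroRNAs with known roles were followed in lists, which hold 35 clusters in all. An upstream summit lay at 15 of the 35 (42.9%), near the 39.9% of all clusters, and a nearby one at 5. In the full pooled list, which also holds weaker regions, 25 (71.4%) had one upstream, near the 68.0% of all clusters. The lists were not tested, and each holds at most 9 clusters. In the list for growth and cell survival, 7 of 9 clusters had an upstream summit (77.8%, beside 39.9% of all clusters), and 5 of 6 host promoters had one, beside 66.1% of all hosts. Bantam, which drives growth and blocks cell death through the message of hid, had its highest summit (617, rank 1727; replicate ranks 1741, 1584 and 2046) 1433 bp upstream and at no annotated start. The lncRNA:CR43334 gene around it held 7 IDR summits. The cluster of mir-2c, mir-13a and mir-13b-1, whose family lowers the cell death genes reaper, grim and sickle, had 538 (replicate ranks 3724, 1506 and 1851) 1096 bp upstream.

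In the same list, mir-308 in the ribosomal protein gene RpS23 had 501 at the host's start, and mir-14, which suppresses cell death, had 372 at the start of lncRNA:CR43651. The mir-11 and mir-998 cluster in E2f1, the cell cycle transcription factor gene, had 237 upstream, at no annotated start, while the E2f1 promoter summit (476) lay 38384 bp away. The lowest was mir-13b-2 in CCT2, a chaperonin subunit gene, with 202 (replicate ranks 7066, 9117 and 21428), which only replicate 1 held among its highest regions. No upstream summit was found for mir-2b-1, whose host Btk has its promoter farther away, and for mir-278 in CG42524, whose host had none either.

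Clusters of the same seed had promoters of unlike signal. The AUCACAG family printed above counts 14 hairpins in 7 clusters. All 5 of its host genes (spi, Btk, RpS23, E2f1 and CCT2) had a promoter summit, beside 66.1% of all hosts. Their signals ran from 202 at CCT2 to 1543 at spi. Over all hosts with a promoter summit they ran from 192 at Nup153 to 1627 at CG5953, so this spread is not particular to the family. Its other clusters are mir-2c, mir-13a and mir-13b-1, with an upstream summit, and the early cluster from mir-309 to mir-6-3, with none. The AUUGCAC family, mir-92a, mir-92b and mir-310 to mir-313, forms 2 clusters, of which the jigr1 pair had a nearby summit only. The mir-310 cluster had 735 (replicate ranks 1195, 1711 and 950) 2035 bp upstream, at the shared start region of HnRNP-K and Nnf1a. The same region is the highest promoter summit of HnRNP-K, the host of mir-7, at 18627 bp from that hairpin.

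In the nervous system list, 4 of 9 clusters (44.4%) had an upstream summit, near the 39.9% of all clusters. Besides mir-279 and mir-9a these were mir-317, mir-277 and mir-34 (361), of which mir-34 guards the ageing brain, and mir-7, a factor of photoreceptor development, with 224 at a second start of HnRNP-K. Without one were mir-124 with mir-287, mir-bft (also known as mir-263a), mir-263b, mir-276a and mir-276b. Of these, mir-bft had the summit of 306 at the start of its long transcript, outside the window. In the pooled list all but mir-bft had a weaker region upstream.

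In the list for metabolism and germline stem cells, 4 of 5 clusters had an upstream summit, beside 39.9% of all clusters. Among them is the cluster of mir-317, mir-277 and mir-34, which is also counted in the nervous system list. A list of 5 clusters is too short to read against that share. The mir-33 hairpin lies in SREBP, the regulator of lipid synthesis, and had 985.1 (rank 607; replicate ranks 886, 358 and 882) 3429 bp upstream, at no annotated start. The SREBP promoter summit itself was lower, 546. The mir-8 gene, which tunes insulin signalling in the fat body, had 516 3057 bp upstream, and mir-275 with mir-305 had 241 at 421 bp. For mir-184, needed in egg formation, none was found, in the pooled list either. The lncRNA:CR44206 gene around mir-184 held 1 IDR summit outside the window. Its start had a summit among the highest regions of replicate 3 but none in the IDR set.

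Other lists had no upstream summit in the IDR set. They were the heterochronic cluster of mir-100, let-7 (mir-let7) and mir-125, the muscle gene mir-1, the mir-309 cluster that clears maternal messages, the 4 clusters of the Hox complexes (mir-10, mir-993, mir-iab-4 and mir-iab-8) and the 4 testis clusters. In the pooled list mir-1 and all 4 Hox clusters had a region upstream, and the let-7 complex, the mir-309 cluster and the testis clusters had none. Lists of 1 or 4 clusters are too short to read against the 39.9% over all clusters.

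Genes of small RNA processing and of message silencing, not of the microRNA pathway alone, were followed as protein-coding genes. Of 26, 24 had an IDR summit within 500 bp of a start, 92.3% (74.9 to 99.1), beside the 42.3% of all protein-coding genes, and the replicates gave 22, 21 and 21. The highest were AGO1, the Argonaute that carries most microRNAs, with a signal of 936 (replicate ranks 465, 826 and 997), Pop2, a deadenylase of the CCR4-NOT complex, with 910 (replicate ranks 1122, 735 and 480) and r2d2, the partner of Dicer-2, with 901 (replicate ranks 1096, 717 and 628). The silencing factor gw had 688. The nuclear pair stood near the bottom of the set, with 194 for drosha and 186 for pasha, whose region ranked 7223, 12873 and 12353 in the replicates. Dcr-1, which dices the hairpins, had no IDR summit and none among the highest regions of any replicate, and Hen1, which methylates the ends of small RNAs, had one in replicate 1 alone.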

How the data were processed

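ChIP-seq region lists of 3 replicates in 1 group were used. Per the file notes, the authors called regions on each replicate and on the pooled replicates against a control alignment, not analysed here, and took the reproducible (IDR) set from them. The aligner, peak caller and threshold are each not given in the sources used here. Deposited signal per region differs in scale between lists, so it was used only to rank within 1 list, and the deposited −log10 q-value was not used in a result. The replicate lists held 30000, 30000 and 28466 regions. Whether the biological replicates came from separate collections is not stated. The description (an anti-GFP precipitation) was followed where the antibody label reads CG12659. The dm3 lists were not used.

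Hairpins came from Ensembl release 115 (BDGP 6.54). Symbols of the role lists were matched through RefSeq synonyms (mir-263a is mir-bft, let-7 is mir-let7, Caf40 is Rcd-1). A cluster has the class of its first hairpin, and where several genes hold a hairpin the shortest is the host. Coordinates are 1-based. Backgrounds count every position of the 6 arms. In each replicate the 8952 regions of highest signal were compared. Named were the 12 clusters of highest nearby signal, the 8 of highest signal upstream only, the 8 highest hosts and the listed role members. Members and lists were chosen with earlier results of these data known. Alternatives were other peak sets, windows, cluster rules and replicates left out. With a replicate left out, the set was those top regions of 1 remaining list overlapping the top regions of the other by 50% of the shorter. The counting was tested on simulated data. Software was scipy 1.17.1, pandas 2.3.3, numpy 2.4.6 and matplotlib 3.10.9 under Python 3.11.15.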

Additional observations from a re-analysis of the deposited data

How the results depend on the processing

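There is 1 group, so no second group could be paired with it. The hosted and intergenic shares of a replicate come from the same list, and the permutation tests did not use this pairing. Direction changed in 3 cases. For summits within 500 bp, the hosted minus intergenic difference of 0.905 points in the IDR set became -2.12 with all regions of the pooled list and -6.17 with all regions of each replicate. For 5 kb upstream, the difference of 16.1 points became -14.6 for clusters with no protein-coding start in the window. It stayed positive under the other 13 alternatives, and the 500 bp difference under the other 11. For these reversals the cause was not tested.

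Counts moved by over 1.5 times as follows. Nearby hosted clusters (12) became 6 with the stronger part of the IDR peaks, 30 with the pooled list, 29.3 on average with all regions of each replicate, 4 at 200 bp and 22 at 1000 bp. Nearby intergenic clusters (5) became 2, 15, 17, 0 and 10 under the same settings and 2 without hairpins in a non-coding gene. They numbered 3 without replicate 1, 3 without replicate 2 and 5 without replicate 3. Upstream hosted clusters (57) became 93 with the pooled list, 90.7 with all regions of each replicate, 27 at 2 kb and 4 with no protein-coding start. Upstream intergenic clusters (17) became 32, 36, 10 and 9 under the same settings, 32 of 92 with 1 value per hairpin and 7 of 29 without hairpins in a non-coding gene. Hosts with a promoter summit (82) became 54 with the stronger part, where 28.8% of protein-coding genes had one against 43.5% of hosts, and ran from 71 to 77 with a replicate left out. Those sets are smaller (7530, 7509 and 7771 regions), so counts can change with set size alone.

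Depth per replicate is unknown, and a cluster without a summit may have one below the authors' threshold. Of the clusters without an IDR summit in the window, 31 had a nearby and 57 an upstream region in the pooled list. In the highest regions of at least 1 replicate, 7 had a nearby and 7 an upstream summit that the IDR set lacked.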

Other observations

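By chromosome arm, clusters with an upstream IDR summit numbered 20 of 41 on 2L, 19 of 41 on 2R, 10 of 31 on 3L, 20 of 49 on 3R, 11 of 39 on X and 1 of 2 on chromosome 4. The 3 mir-10404 hairpins on the main arms, copies of a hairpin in the ribosomal RNA spacer, had no summit in either window, and reads from such copies cannot be assigned to 1 of them.

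The seeds GACUAGA and CUUUGGU each join a cluster with a high upstream summit to a cluster without one. GACUAGA is carried by mir-279 and mir-996, and also by mir-286 of the mir-309 cluster, which had no summit upstream. CUUUGGU is carried by mir-9a, and also by mir-9b and mir-9c, whose cluster had no summit upstream but a summit at the promoter of its host.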
